A study of Mus musculus with 34 samples.

Results

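The genes described here are 9 nuclear genes whose proteins catalyse steps of the citrate cycle (tricarboxylic acid cycle) in the mitochondrial matrix. They are *Cs*, *Idh2*, *Idh3a*, *Idh3b*, *Idh3g*, *Ogdh*, *Suclg1*, *Fh1* and *Mdh2*, chosen by name from tables of gene counts that list 23509 genes. Kidney polyadenylated RNA had been sequenced from 34 C57BL6 mice on postnatal day (P) 28. Untreated non-transgenic mice (UNT, n = 12) were compared with *Pkd2*-KO mice that received subcutaneous PBS (n = 11) or 20 mg per kg of RGLS4326 (n = 11), both at P10, P11, P12 and again at P19. *Pkd2*-KO mice carry floxed *Pkd2* alleles and a Cre transgene under the *Pkhd1* promoter, which is active in kidney tubules and mainly in collecting ducts, so that the other cells of these cystic kidneys keep the gene. RGLS4326 is a short, chemically modified oligonucleotide that inhibits the microRNA miR-17. The PBS and UNT groups differed in genotype as well as in the injections. Groups follow the sample labels, and for PBS the number of mice so labelled differs from the number of PBS-treated mice stated in the study's text, for a reason the sources used here do not give.

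The citrate cycle oxidises acetyl-CoA to carbon dioxide and passes the electrons to the respiratory chain as NADH and reduced ubiquinone. Proximal tubule cells, which make up much of the renal cortex and reabsorb most of the filtrate, are rich in mitochondria and use fatty acids, glutamine and lactate rather than glucose as fuel. Whole kidney RNA was measured here, so fewer cells of a type and less RNA per cell cannot be told apart.

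All 9 genes were read deeply, with between 2585 and 35395 reads per gene and library, and all 9 passed the filter on low counts that left 15644 genes for testing. In the annotation of the genome build GRCm38, *Cs* lies on chromosome 10 (128337734 to 128362479), *Idh2* on chromosome 7 (80094846 to 80115392), *Idh3a* on chromosome 9 (54586334 to 54604661), *Idh3b* on chromosome 2 (130279309 to 130284547) and *Idh3g* on chromosome X (73778963 to 73786897). *Ogdh* lies on chromosome 11 (6291633 to 6356642), *Suclg1* on chromosome 6 (73248382 to 73276911), *Fh1* on chromosome 1 (175600374 to 175625635) and *Mdh2* on chromosome 5 (135778480 to 135790398). Exons of *Idh3b* share 5 bases with the oppositely oriented *Nop56*, and no other gene of the 9 shares exon bases with another counted gene. Whether the counting used the strand of the reads is not given in the sources used here.

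Because the treatment is directed at miR-17, the 3′ untranslated regions of the 9 genes were searched for matches to its seed, which is shown in capitals in the first sequence (bases 2 to 8, chromosome 14, chr14:115043684-115043706, plus strand, RefSeq, GRCm38.p6). Searched were GCACTTT (7mer-m8) and CACTTTA (7mer-A1), which overlap in the 8-base match GCACTTTA, on the transcript strand alone. A match was found in *Idh3g* (chrX:73779019-73779025, minus strand, base 45 of a 107-base 3′ untranslated region) and in *Fh1* (chr1:175601334-175601340, minus strand, base 84 of 1050). Both are 7mer-A1 matches, shown in capitals with flanking bases.
mmu-miR-17-5p: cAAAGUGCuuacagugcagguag
*Idh3g*: tctcttctCACTTTAgcactcca
*Fh1*: aacttattCACTTTAtatcccac

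Of 19176 genes with an annotated 3′ untranslated region, 3685 (19.2%) hold such a match. The 2 of 9 genes here are therefore close to that share, and a match is a description of the sequence only. Among the other mitochondrial cycle enzymes, a 7mer-A1 match stands in *Suclg2* (chr6:95473827-95473833, minus strand) and a 7mer-m8 match in *Sdhd* (chr9:50597068-50597074, minus strand).
*Suclg2*: gcgagccaCACTTTAtttcatgt
*Sdhd*: tgggtgcaGCACTTTgattgtgt

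Libraries held 17603122 to 54981992 reads in genes. The library numbers in the names of the deposited tables fall into 3 series, called library sets here, each with 3 or 4 mice of every group, and the differences between groups in the citrate cycle genes and in the ratios were also computed within them. Reads falling in no gene made up 9.84 to 11.35% of the reads in UNT, 5.18 to 8.99% in PBS and 4.94 to 12.01% in RGLS4326 libraries. The share was 11.32 to 12.01% for the 3 RGLS4326 libraries of set 2, and 11.72% for RGLS4326 replicate 11 of set 3. The labels spell the genotype "Pdk2KO". *Pkd2* was at 219.6 to 337.7 CPM (reads of a gene relative to all gene reads of its library) in UNT, 98.0 to 214.5 CPM in PBS and 170.0 to 236.9 CPM in RGLS4326 kidneys. *Pdk2*, a pyruvate dehydrogenase kinase gene, was at 216.9 to 364.9 CPM in UNT, 86.8 to 152.4 CPM in PBS and 75.5 to 155.4 CPM in RGLS4326 kidneys. Both genes were thus lower in PBS kidneys without overlap, by 0.78 for *Pkd2* and 1.17 for *Pdk2* on the log2 scale, and these levels do not tell which spelling is meant. The treatment protocol in the labels and the study's text name *Pkd2*.

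All 9 genes fell in PBS-treated *Pkd2*-KO kidneys relative to UNT, and the losses were unequal. *Suclg1*, *Idh3b* and *Fh1* were left at 37.6%, 40.7% and 43.3% of the UNT mean, whereas *Cs* and *Mdh2* were left at 73.7% and 62.2%. Between RGLS4326 and PBS kidneys none of the 9 passed the test, and the 95% intervals of the log2 differences lay between -0.26 and 0.26. The 9 genes together took 0.328 to 0.353% of the gene reads of a UNT library, 0.190 to 0.244% of a PBS library and 0.181 to 0.241% of an RGLS4326 library.

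Levels between genes were compared per kilobase of exon, from CPM scaled by trimmed mean of M-values (TMM). In UNT kidneys *Idh2*, the NADP-dependent isocitrate dehydrogenase, was the most abundant with 228.5 ± 8.18 CPM per kb (SD, n = 12). *Ogdh* (136.5 ± 13.4), *Mdh2* (130.9 ± 9.85), *Idh3b* (125.2 ± 5.98) and *Idh3g* (115.9 ± 5.63) followed. *Ogdh* and *Mdh2* each differed from the next in order by less than their SD, and *Idh3b* from *Idh3g* by more. *Suclg1* (90.8 ± 7.96), *Fh1* (83.2 ± 5.86), *Cs* (68.8 ± 4.43) and *Idh3a* (49.5 ± 5.92) came last. In PBS kidneys *Idh2* (101.3 ± 11.4 CPM per kb, n = 11) and *Idh3a* (25.5 ± 3.55) still held the first and last place, and *Cs* (50.7 ± 3.72) stood above *Suclg1* (34.1 ± 6.12) and *Fh1* (36.1 ± 5.46), the reverse of their order in UNT kidneys. The order of *Ogdh* and *Mdh2* also differed between the groups, but by less than their SD in PBS kidneys.

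*Cs* encodes citrate synthase, which joins acetyl-CoA to oxaloacetate at the entry of the cycle. Its level was 356.5 to 430.8 CPM in UNT kidneys (median 391.6), 258.7 to 326.8 CPM in PBS kidneys (median 288.4) and 238.8 to 333.7 CPM in RGLS4326 kidneys (median 280.3). Every PBS and every RGLS4326 kidney lay below the lowest UNT kidney, and the ranges of the 2 *Pkd2*-KO groups overlapped almost wholly. The log2 fold change was -0.44 (SE 0.06, adjusted p by edgeR = 5.52e-09) for PBS against UNT, the smallest of the 9. Over the alternative fits it ran from -0.78 to -0.15. For RGLS4326 against PBS the log2 fold change was -0.06 (95% interval -0.17 to 0.05, edgeR adjusted p = 0.405).

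**Figure D1:**
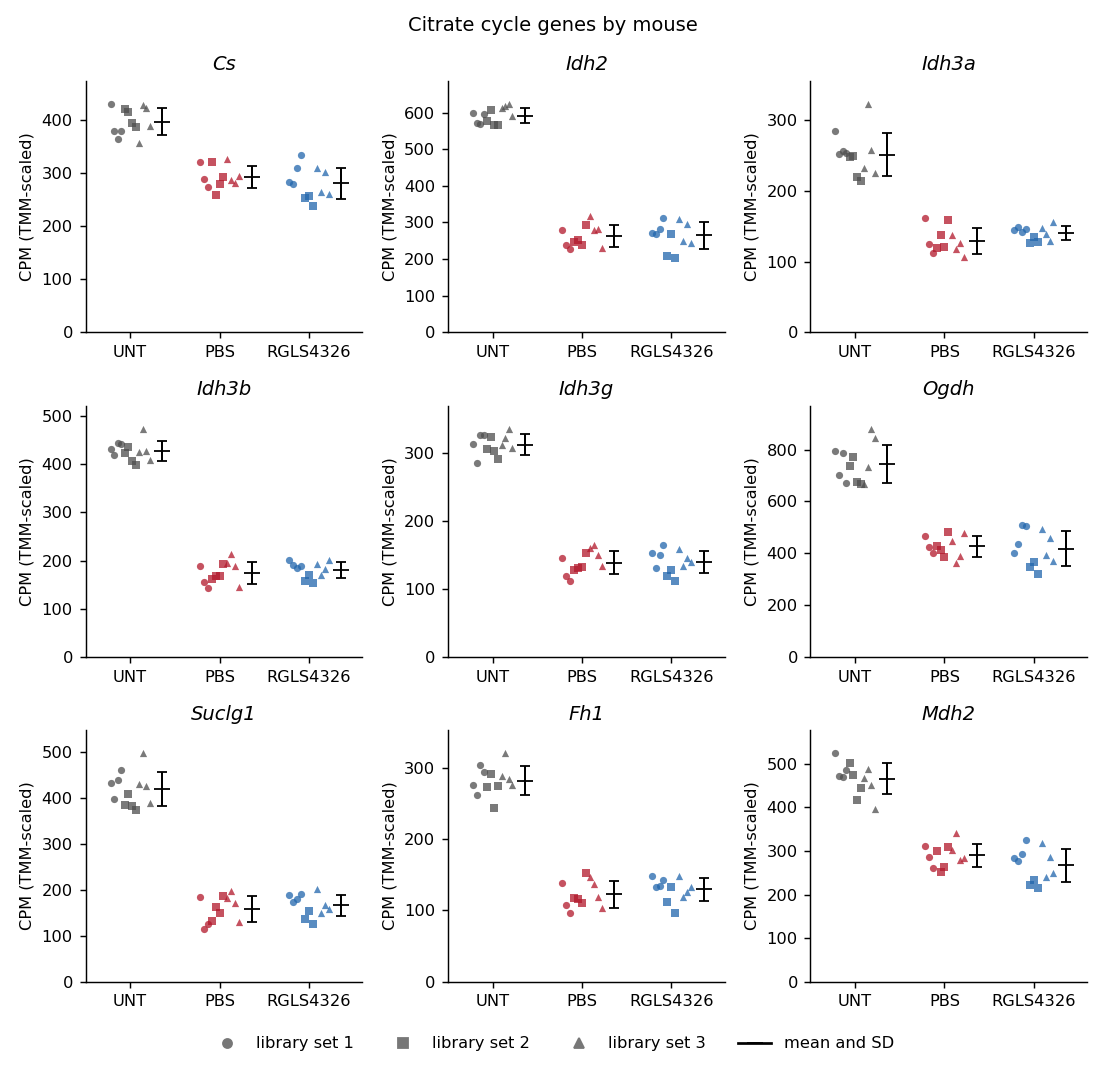
Level of each of the 9 citrate cycle genes in every kidney, in TMM-scaled CPM on axes that start at 0, for UNT (n = 12), PBS (n = 11) and RGLS4326 (n = 11) mice. Symbols give the library set and bars the mean and SD. For every gene the UNT kidneys lie above all *Pkd2*-KO kidneys, and the PBS and RGLS4326 kidneys overlap.

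The conversion of isocitrate to 2-oxoglutarate is catalysed in mitochondria by 2 kinds of enzyme. *Idh2* encodes the NADP-dependent homodimer, and *Idh3a*, *Idh3b* and *Idh3g* encode the catalytic alpha subunit and the beta and gamma subunits of the NAD-dependent enzyme. *Idh2* was at 564.8 to 623.6 CPM in UNT (median 592.7), 227.5 to 318.7 in PBS (median 252.7) and 202.0 to 310.6 in RGLS4326 kidneys (median 269.0). The lowest UNT kidney was thus well above the highest *Pkd2*-KO kidney, and the log2 fold change for PBS against UNT was -1.17 (SE 0.07, adjusted p by edgeR = 8.09e-18). RGLS4326 and PBS kidneys differed in mean *Idh2* by 0.01 on the log2 scale (95% interval -0.13 to 0.15, edgeR adjusted p = 0.901).

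*Idh3b* lost the most of the 3 subunit genes. It was at 398.3 to 474.3 CPM in UNT (median 426.5), 142.7 to 214.2 in PBS (median 168.6) and 153.3 to 202.3 in RGLS4326 kidneys (median 184.4), with a log2 fold change for PBS against UNT of -1.30 (SE 0.06, adjusted p by edgeR = 5.82e-20). *Idh3g* fell from 285.7 to 336.6 CPM (median 312.6) to 112.4 to 164.6 CPM (median 134.0), a log2 fold change equal to -1.17 (SE 0.06, adjusted p by edgeR = 2.88e-18). For neither gene did a *Pkd2*-KO kidney reach the lowest UNT kidney. *Idh3a*, the catalytic subunit, was at 213.9 to 323.2 CPM in UNT (median 250.5), 106.1 to 161.1 in PBS (median 124.6) and 126.7 to 155.3 in RGLS4326 kidneys (median 142.0). Its log2 fold change for PBS against UNT was -0.96 (SE 0.07, adjusted p by edgeR = 3.89e-15), and its difference between treatments, 0.12 (95% interval -0.02 to 0.26, edgeR adjusted p = 0.176), was the highest of the 9. *Idh3g* was at 112.2 to 165.0 CPM in RGLS4326 kidneys (median 140.6), and the log2 differences between treatments were 0.06 for *Idh3b* (95% interval -0.07 to 0.18) and 0.01 for *Idh3g* (-0.13 to 0.14).

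Since the genes of this step did not fall equally, their counts were compared as ratios within each library, which need no scaling between libraries. The ratio of *Idh3b* to *Idh3a* counts was 1.47 to 1.86 in UNT (median 1.74), 1.17 to 1.83 in PBS (median 1.35) and 1.21 to 1.42 in RGLS4326 kidneys (median 1.29). All RGLS4326 kidneys lay below all UNT kidneys, and 2 PBS kidneys lay within the UNT range, replicate 9 at 1.83 and replicate 10 at 1.49. The mean log2 ratio was lower by 0.34 for PBS against UNT (two-sided permutation test, adjusted p = 0.000495 over 9 comparisons, lower than the UNT mean in 10 of 11 mice), where *Idh3b* lost more than *Idh3a*.

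The ratio of *Idh2* to *Idh3a* had a median of 2.39 in UNT, 2.04 in PBS and 1.87 in RGLS4326 kidneys, and that of *Idh3g* to *Idh3a* of 1.30, 1.07 and 0.965. Both were lower in PBS kidneys than in UNT, by 0.22 (permutation adjusted p = 0.00443) and 0.21 (permutation adjusted p = 0.0141) on the log2 scale. In library set 3 the PBS and UNT kidneys differed less than in the other sets, by -0.07, -0.15 and 0.01 for the ratios of *Idh2*, *Idh3b* and *Idh3g* to *Idh3a*. Against UNT the RGLS4326 kidneys were lower in all 3 ratios, by 0.34, 0.41 and 0.33 for *Idh2*, *Idh3b* and *Idh3g* (permutation adjusted p = 0.000495, 0.00018 and 0.000495). None of the 3 ratios passed the permutation test between RGLS4326 and PBS, with log2 differences of -0.12, -0.07 and -0.12 (permutation adjusted p = 0.125, 0.300 and 0.127). The 2 comparisons with PBS share the PBS kidneys.

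*Ogdh* encodes the first component (E1) of the oxoglutarate dehydrogenase complex, which forms succinyl-CoA. It was at 665.6 to 881.5 CPM in UNT (median 735.4), 362.5 to 484.0 in PBS (median 425.8) and 318.9 to 509.7 in RGLS4326 kidneys (median 401.1). The groups of PBS and UNT kidneys did not overlap (log2 fold change -0.80, SE 0.08, adjusted p by edgeR = 5.36e-12), and RGLS4326 kidneys spread on both sides of the PBS mean (log2 fold change -0.03, 95% interval -0.18 to 0.13).

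The other 2 components of this complex lost more than *Ogdh*. *Dlst*, the succinyltransferase (E2), had a log2 fold change for PBS against UNT of -1.23 (SE 0.06), and *Dld*, the dihydrolipoyl dehydrogenase (E3) that also serves the pyruvate and branched-chain dehydrogenase complexes, one of -1.59 (SE 0.09). The ratio of *Dld* to *Ogdh* counts was 0.485 to 0.789 in UNT (median 0.515), 0.209 to 0.389 in PBS (median 0.341) and 0.319 to 0.502 in RGLS4326 kidneys (median 0.441). PBS and UNT kidneys did not overlap in this ratio, and all 11 RGLS4326 kidneys were above the PBS mean. The mean log2 ratio was 0.80 lower for PBS against UNT (permutation adjusted p = 0.00012 over 12 comparisons added after the values were seen). It was 0.41 higher in RGLS4326 than in PBS kidneys (permutation adjusted p = 0.00428), with differences of 0.37, 0.53 and 0.39 within library sets 1, 2 and 3. In RGLS4326 replicates 5, 6, 7 and 11, with 11.32 to 12.01% of reads in no gene, the ratio was 0.473 to 0.497. In replicates 1, 2 and 9 (7.62 to 8.92%) it was 0.425 to 0.502. In replicates 3, 4, 8 and 10 (4.94 to 7.52%) it was 0.319 to 0.334, within the PBS range. The part of this share in the ratios to *Ogdh* and *Suclg1* was not tested.

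For *Dlst* the differences were smaller in size. Its ratio to *Ogdh* had a median of 0.696 in UNT, 0.531 in PBS and 0.546 in RGLS4326 kidneys, lower by 0.44 on the log2 scale in PBS than in UNT kidneys (permutation adjusted p = 0.00012) and higher by 0.16 in RGLS4326 than in PBS kidneys (permutation adjusted p = 0.0386). Leaving out 1 of 4 libraries (PBS replicates 2 and 11, RGLS4326 replicates 7 and 11) brought the unadjusted p of the last difference to 0.05 or more, up to 0.0554. The ratio was 0.615 to 0.666 in RGLS4326 replicates 5, 6, 7 and 11 (11.32 to 12.01% of reads in no gene). It was 0.541 to 0.593 in replicates 1, 2 and 9 (7.62 to 8.92%). In replicates 3, 4, 8 and 10 (4.94 to 7.52%) it was 0.495 to 0.513.

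*Suclg1* encodes the alpha subunit of succinyl-CoA ligase, which pairs with a beta subunit from *Suclg2* in the GTP-forming enzyme or from *Sucla2* in the ATP-forming enzyme. Of the 9 genes it had the largest loss in PBS kidneys, from 373.2 to 497.6 CPM (median 417.9) to 115.4 to 196.4 CPM (median 162.1), a log2 fold change equal to -1.41 (SE 0.09, adjusted p by edgeR = 6.37e-17). RGLS4326 kidneys were at 126.3 to 200.9 CPM (median 167.9), a range that overlapped that of PBS kidneys almost wholly (log2 fold change 0.07, 95% interval -0.10 to 0.25). Both beta subunits fell about as far as *Suclg1*, *Suclg2* by 1.35 (SE 0.08) and *Sucla2* by 1.54 (SE 0.08) on the log2 scale.

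The ratio of *Suclg2* to *Suclg1* was 1.07 to 1.30 in UNT (median 1.17), 0.889 to 1.38 in PBS (median 1.29) and 1.25 to 1.46 in RGLS4326 kidneys (median 1.33). Its mean log2 value was higher by 0.12 in RGLS4326 than in PBS kidneys (permutation adjusted p = 0.038, 11 of 11 mice above the PBS mean), and PBS replicate 9 alone stood at 0.889. Without that mouse the difference was 0.07, and on leaving out each mouse in turn the unadjusted p lay between 0.0106 and 0.0451. Within library sets 1, 2 and 3 it was 0.03, 0.13 and 0.20. For PBS against UNT the *Suclg2* ratio differed by 0.06 (permutation adjusted p = 0.327), and by 0.11 without the same mouse (unadjusted permutation p = 0.0042). Within library sets 1, 2 and 3 that difference was 0.16, 0.15 and -0.11, and the groups did not overlap in sets 1 and 2. *Sucla2* to *Suclg1* was higher by 0.18 in RGLS4326 than in PBS kidneys (permutation adjusted p = 0.0386, 8 of 11 mice), with within-set differences of -0.02, 0.36 and 0.21. That call was lost at an unadjusted p of up to 0.0594 when any of 5 libraries was left out (RGLS4326 replicates 5, 6, 7 and 11, PBS replicate 9). The *Sucla2* ratio was 0.793 to 0.873 in RGLS4326 replicates 5, 6, 7 and 11 (11.32 to 12.01% of reads in no gene). It was 0.71 to 0.76 in replicates 1, 2 and 9 (7.62 to 8.92%). In replicates 3, 4, 8 and 10 (4.94 to 7.52%) it was 0.541 to 0.678. For *Suclg2* to *Suclg1* the ranges were 1.29 to 1.46, 1.29 to 1.35 and 1.24 to 1.36 in the same order. For PBS against UNT the *Sucla2* ratio was lower by 0.11 (permutation adjusted p = 0.0469), with an unadjusted p of up to 0.076 on leaving out any of 13 libraries.

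**Figure D2:**
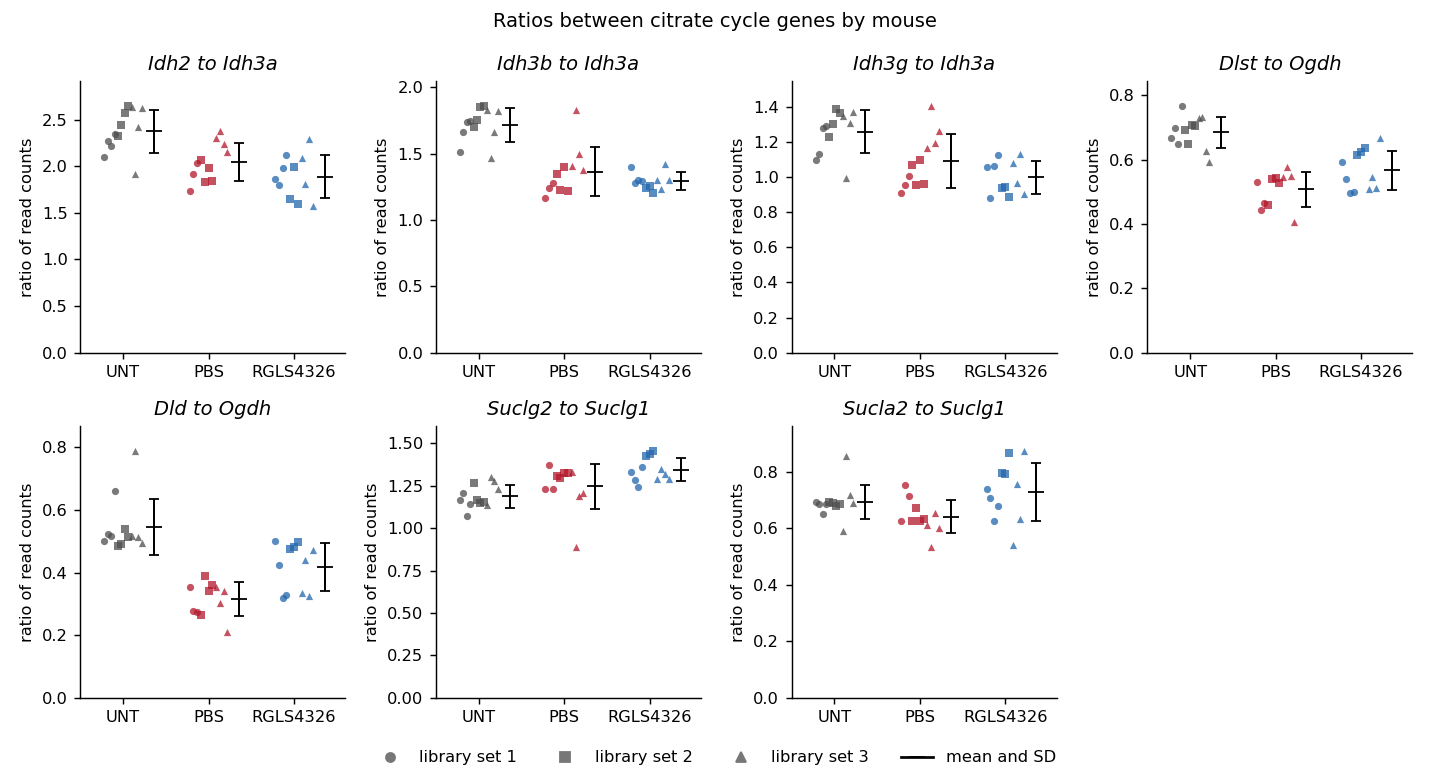
Ratio of read counts between pairs of citrate cycle genes in every kidney, on axes that start at 0, with the mean and SD of each group and symbols for the library set. The *Idh3b* to *Idh3a* ratio is lower in both *Pkd2*-KO groups, and the *Dld* to *Ogdh* ratio is lowest in PBS kidneys, with RGLS4326 kidneys between PBS and UNT.

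*Fh1* encodes fumarase, which hydrates fumarate to malate. It was at 243.8 to 320.6 CPM in UNT (median 279.9), 97.0 to 152.9 in PBS (median 116.9) and 96.0 to 148.3 in RGLS4326 kidneys (median 132.9). No *Pkd2*-KO kidney reached the UNT range, with a log2 fold change equal to -1.21 (SE 0.07, adjusted p by edgeR = 4.56e-17) for PBS against UNT, and treatment gave 0.08 (95% interval -0.07 to 0.23, edgeR adjusted p = 0.379). *Fh1* and *Idh3g*, the genes with a miR-17 seed match shown above, thus had log2 differences between treatments of 0.08 and 0.01, inside the span of the 7 genes without a match (-0.12 to 0.12).

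*Mdh2* encodes mitochondrial malate dehydrogenase, which regenerates oxaloacetate and takes part in the malate-aspartate shuttle. It was at 396.6 to 524.4 CPM in UNT (median 471.0), 251.2 to 341.6 in PBS (median 286.4) and 216.0 to 325.3 in RGLS4326 kidneys (median 276.7). The log2 fold change was -0.68 (SE 0.07, adjusted p by edgeR = 1.82e-11) for PBS against UNT and -0.12 (95% interval -0.26 to 0.02, edgeR adjusted p = 0.172) for RGLS4326 against PBS, the lowest of the 9.

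Counted over the list, 9 of 9 genes were called lower for PBS against UNT at an adjusted p under 0.05, where 39% of all genes tested were called lower, and the median log2 fold change was -1.17 beside 0.04 for all genes. For 9 of 9 the PBS kidneys all lay below the UNT kidneys, which held for 19.8% of all genes. In the comparison of RGLS4326 with UNT kidneys 9 of 9 were called lower (36.9% of all genes) and 9 of 9 did not overlap (16.1% of all genes), with log2 fold changes from -0.50 for *Cs* to -1.34 for *Suclg1*. Between RGLS4326 and PBS kidneys 0 of 9 were called by edgeR, where 33.8% of all genes were, 0 of 9 had an unadjusted p under 0.05 and 0 of 9 were called by DESeq2. The share of reads in no gene did not overlap between PBS and UNT libraries. Nor did the share of reads lacking a unique alignment, 22.84 to 25.65% in UNT and 14.81 to 19.38% in PBS libraries. Fits with either share added therefore cannot tell it apart from the group. With the share in no gene added all 9 were called lower, at log2 fold changes from -1.64 to -0.67. With the share lacking a unique alignment added they were called lower at -1.59 to -0.78. Over all genes 10974 and 7338 were called in these fits, beside 12841 without a share.

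The absence of a treatment call covered unlike values in the 3 library sets. Within set 1 all 9 genes were higher in RGLS4326 than in PBS kidneys, from 0.03 for *Cs* to 0.41 for *Suclg1* on the log2 scale. Within set 2 all 9 were lower, from -0.04 for *Idh3a* to -0.33 for *Mdh2*, and RGLS4326 kidneys lay wholly below PBS kidneys for 3 of 9, *Cs*, *Ogdh* and *Mdh2*, as for 18.8% of all genes in that set. Within set 3 the differences ran from -0.15 for *Mdh2* to 0.23 for *Idh3a*. The difference between sets passed the edgeR F test for 0 of the 9 genes, and for 0% of all genes, at an adjusted p under 0.05. Its unadjusted p was under 0.05 for *Idh3g* (0.00822) and *Suclg1* (0.0243), and the test was added after these values were seen.

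The 3 RGLS4326 kidneys of set 2 gave 0.181 to 0.205% of their gene reads to the 9 genes and the other 8 gave 0.199 to 0.241%. Without those 3 libraries 0 of 9 genes were called by edgeR (1 with an unadjusted p under 0.05), beside 927 of 15779 genes tested, and the log2 differences between treatments ran from -0.03 for *Mdh2* to 0.16 for *Suclg1*. With reads in no gene added to the model as a share, 0 of 9 were called (1 with an unadjusted p under 0.05), beside 89 of all genes, and the differences ran from 0.03 for *Mdh2* to 0.18 for *Suclg1*. The fit without the 3 libraries was chosen after their values were seen. Which of these shares or sets bears on the treatment values was not tested.

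**Figure D3:**
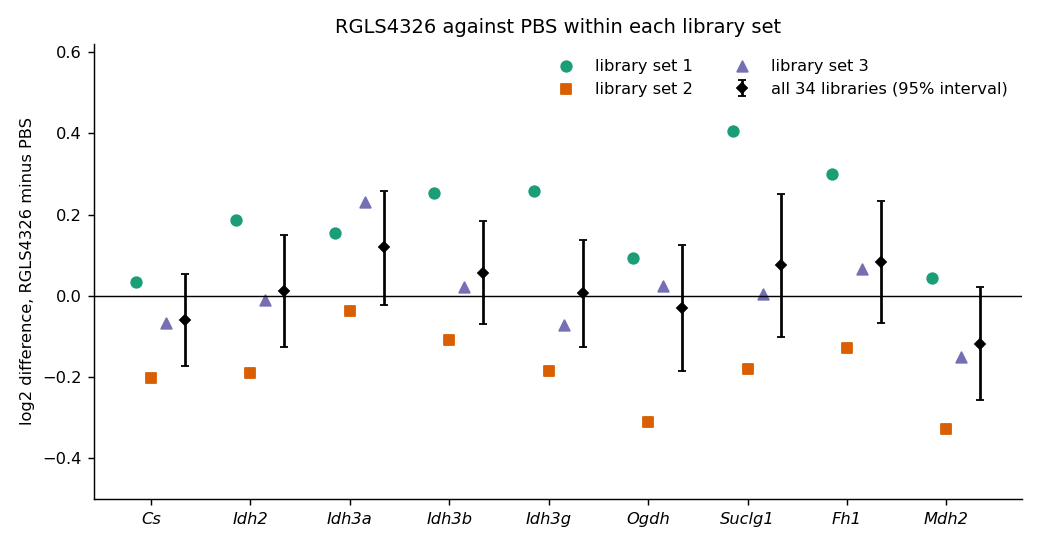
Difference of the mean log2 CPM between RGLS4326 and PBS kidneys for each of the 9 genes within library sets 1, 2 and 3, beside the edgeR log2 fold change over all 34 libraries with its 95% interval. Set 1 points lie above 0 and set 2 points below 0 for all 9 genes, and every interval over all libraries spans 0.

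Other mitochondrial enzymes of the cycle also fell in *Pkd2*-KO kidneys. All 8 that were examined (*Dlst*, *Dld*, *Suclg2*, *Sucla2*, *Sdha*, *Sdhb*, *Sdhc* and *Sdhd*) were called lower for PBS against UNT, where 39% of all genes were. Their median log2 fold change was -1.35. The values were -1.35, -1.36, -1.0 and -1.03 for the succinate dehydrogenase subunits *Sdha*, *Sdhb*, *Sdhc* and *Sdhd*. With treatment 2 of the 8 were called higher, where 15.3% of all genes were. *Dld* rose from 134 to 171 CPM, a log2 fold change of 0.35 (95% interval 0.16 to 0.53, edgeR adjusted p = 0.00711), and *Sucla2* from 99.9 to 119 CPM, 0.25 (0.09 to 0.42, edgeR adjusted p = 0.0183). Both remained below UNT, where *Dld* was at 404 and *Sucla2* at 291 CPM. Without the 3 RGLS4326 libraries of set 2, with fewer samples and fewer calls among all genes, the log2 fold changes were as large, 0.36 for *Dld* (edgeR adjusted p = 0.0392) and 0.28 for *Sucla2* (0.0553). With reads in no gene added to the model as a share they were 0.32 and 0.25, and neither passed (edgeR adjusted p = 0.107 and 0.138). The treatment differences of the other 6 ran from 0.01 for *Sdhb* and *Sdhc* to 0.19 for *Suclg2* (edgeR adjusted p = 0.0732).

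Enzymes that carry out the same or linked reactions outside the mitochondrion were lower as well in PBS against UNT kidneys. Called lower were 5 of 5, where 39% of all genes were. *Mdh1*, the cytosolic malate dehydrogenase, fell by 1.78 and malic enzyme *Me1* by 1.93 on the log2 scale, each more than *Mdh2*. Cytosolic aconitase *Aco1* fell by 1.44 and *Idh1*, the cytosolic and peroxisomal isocitrate dehydrogenase, by 1.25. *Acly*, which splits citrate in the cytosol, fell by 0.21 (edgeR adjusted p = 0.0342), and with library totals alone as scaling its value was 0.08 and not called. With treatment *Idh1* alone was called, from 232 to 265 CPM (log2 fold change 0.19, 95% interval 0.04 to 0.34, edgeR adjusted p = 0.0451), beside 0.01 for *Idh2*, which was not called. The *Idh1* value lay near the threshold. It was 0.18 with upper quartile factors (edgeR adjusted p = 0.0505), 0.21 without the 3 RGLS4326 libraries of set 2 (0.0965) and 0.23 with reads in no gene added to the model (0.124), and was not called in any of the 3.

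**Figure D4:**
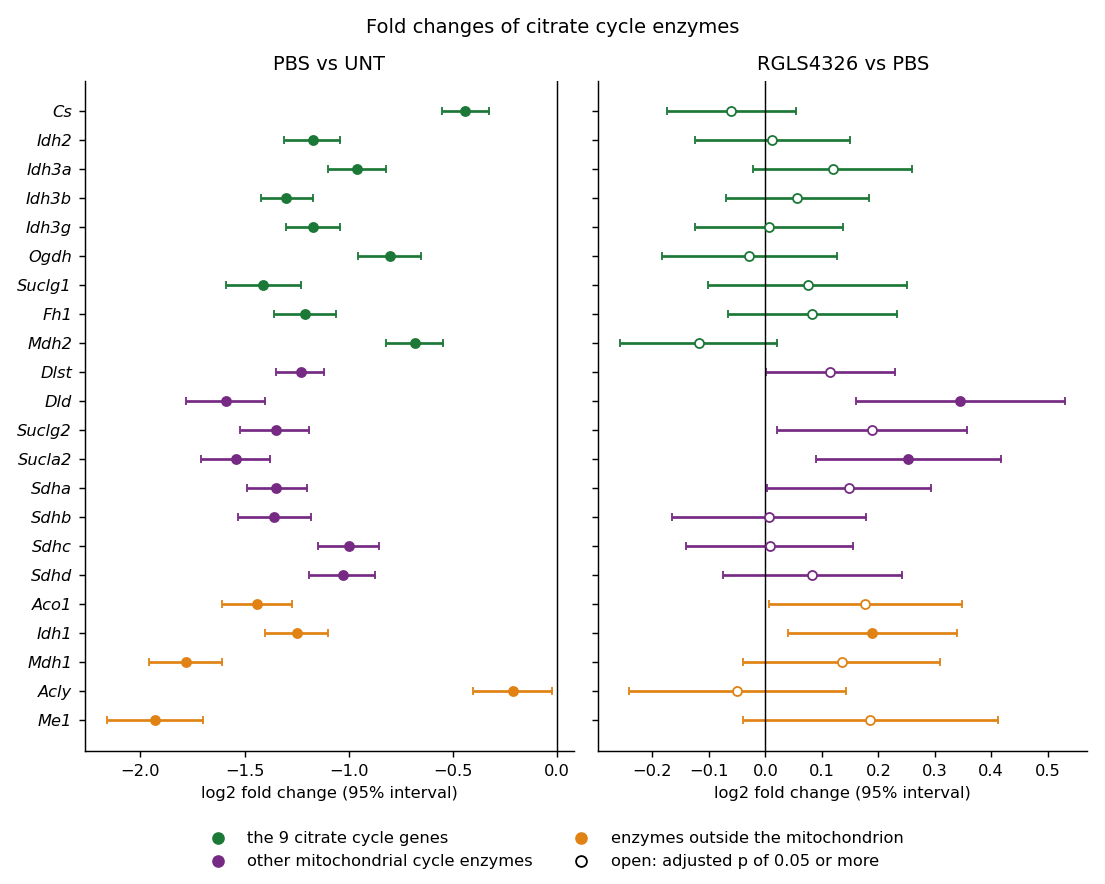
Log2 fold changes with 95% intervals of the 9 citrate cycle genes, the other mitochondrial enzymes of the cycle and enzymes outside the mitochondrion, for PBS against UNT and RGLS4326 against PBS. Filled points have an adjusted p under 0.05. All points lie below 0 on the left, from -1.93 for *Me1* to -0.21 for *Acly*, and on the right *Dld*, *Sucla2* and *Idh1* are filled and above 0.

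Genes that feed or assemble the cycle were less uniform. Of 10 anaplerotic and feeder enzymes 8 were lower and 2 higher for PBS against UNT, where 39% of all genes were called lower and 43.1% higher. The gluconeogenic *Pck1* fell by 3.21 and *Me2*, a mitochondrial malic enzyme, rose by 0.95 on the log2 scale. With treatment 1 was higher and 2 were lower (3 of 10, beside 33.8% of all genes). *Oxct1*, the ketone body transferase that uses succinyl-CoA, rose by 0.28 (edgeR adjusted p = 0.0241), *Me2* fell by 0.25 (edgeR adjusted p = 0.00971) and *Pck2*, the mitochondrial counterpart of *Pck1* and named for the count alone, fell by 0.19 (edgeR adjusted p = 0.0351). Of 8 assembly and lipoylation factors 6 were lower, led by the deacetylase *Sirt3* (-1.72), and with treatment *Sdhaf1*, a succinate dehydrogenase assembly factor, fell by 0.24 (edgeR adjusted p = 0.0321). Both tested enzymes of the side products were lower, *Adhfe1* by 2.57 on the log2 scale, and *D2hgdh*, which oxidises D-2-hydroxyglutarate to 2-oxoglutarate, rose by 0.17 with treatment (edgeR adjusted p = 0.0139).

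General mitochondrial genes and regulators of mitochondrial biogenesis were counted in the same way. Of 15 housekeeping genes 13 were lower in PBS kidneys than in UNT (median log2 fold change -0.65), led by the chaperone *Hspd1* (-1.37). Of all genes 39% were called lower and 43.1% higher in that comparison. With treatment 1 was higher and 3 were lower (4 of 15, beside 33.8% of all genes), led by the fusion gene *Opa1* (0.23, edgeR adjusted p = 0.0127) and the import receptor *Tomm22* (-0.23, edgeR adjusted p = 0.0187). Of 7 biogenesis regulators 6 were lower and *Nrf1* was higher (0.17) in PBS against UNT kidneys. The coactivator *Ppargc1a* fell by 1.61 and rose by 0.53 with treatment (edgeR adjusted p = 0.00639), from 49.9 to 72.3 CPM beside 152 CPM in UNT kidneys. With treatment 3 of the 7 were called higher, where 15.3% of all genes were, the others being *Esrrg* (0.44) and *Gabpa* (0.37). Without the RGLS4326 libraries of set 2 *Ppargc1a* alone of the 7 was called by edgeR, beside 927 of 15779 genes. With reads in no gene added to the model 0 of the 7 were called by edgeR, beside 89 of 15644 genes.

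The treatment calls with the largest rise or fall in these lists were also computed in the 2 fits above. Without the RGLS4326 libraries of set 2 *Ppargc1a* (0.52) and *D2hgdh* (0.19) passed in edgeR, and *Oxct1* (0.30), *Opa1* (0.22), *Me2* (-0.19), *Sdhaf1* (-0.18) and *Tomm22* (-0.17) did not (adjusted p from 0.0682 to 0.165). With reads in no gene added to the model as a share, none of the 7 passed (edgeR adjusted p from 0.0935 to 0.521). The rises were then 0.43 for *Ppargc1a*, 0.18 for *D2hgdh*, 0.30 for *Oxct1* and 0.21 for *Opa1*, whereas the falls shrank to -0.11 for *Me2*, -0.09 for *Sdhaf1* and -0.08 for *Tomm22*.

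Markers of cell types moved in the same comparisons. The 10 proximal tubule markers were all called lower for PBS against UNT (median log2 fold change -2.64, *Lrp2* -2.59), where 39% of all genes were. Their summed level was 19590 to 25840 CPM in UNT and 1996 to 7168 CPM in PBS kidneys. With treatment 6 of the 10 were called higher, where 15.3% of all genes were (*Lrp2* 0.64, edgeR adjusted p = 0.00984, or 0.56 and 0.128 with reads in no gene added to the model). The sum of the 10 was 4039 to 6779 CPM in RGLS4326 kidneys. The sum of the 9 citrate cycle genes was 3607 to 4205 CPM in UNT, 1754 to 2221 CPM in PBS and 1590 to 2311 CPM in RGLS4326 kidneys. The part of the proximal tubule markers in the lower citrate cycle genes was not tested.

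In PBS against UNT kidneys 39% of all genes were called lower and 43.1% higher. Thick ascending limb markers were lower for 4 of 5 (*Umod* -0.79) and higher for 1 (0.59). Distal convoluted tubule markers were lower for 4 of 4 (*Slc12a3* -2.70). Intercalated cell markers were lower for 4 of 5 (*Atp6v1g3* -0.96) and higher for 1 (0.31), and principal cell markers were higher for 6 of 6 (*Aqp2* 1.27). Podocyte markers were lower for 4 of 4 (*Nphs1* -1.71), and endothelial markers higher for 2 and lower for 3 of 5 (*Pecam1* 0.30). Fibroblast markers were higher for 6 of 6 (*Col1a1* 3.32), macrophage markers for 5 of 5 (*Csf1r* 1.84) and T cell markers for 3 of 4 (*Cd3e* 2.84), and the single tested red blood cell marker, *Alas2*, was lower (-1.74). Summed macrophage markers were at 87.3 to 146.7 CPM in UNT, 511.2 to 1305 CPM in PBS and 460.3 to 878.4 CPM in RGLS4326 kidneys, and summed fibroblast markers at 535.2 to 1451, 3181 to 6643 and 4195 to 6205 CPM. Their part in the lower citrate cycle genes was not tested either.

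With treatment the counts of called markers stood beside 15.3% of all genes called higher and 18.5% called lower. Thick ascending limb markers were higher for 3 and lower for 1 of 5, distal convoluted tubule markers higher for 1 of 4, podocyte markers for 4 of 4 and endothelial markers for 4 of 5. Principal cell markers were lower for 4 of 6, intercalated cell markers for 1 of 5, macrophage markers for 3 of 5 and T cell markers for 3 of 4. The 6 fibroblast markers, at log2 differences of -0.08 to 0.30, and *Alas2* (0.17) were not called. With reads in no gene added to the model, where 89 of 15644 genes were called, 1 of 10 proximal tubule markers (*Slc5a2*) and 1 of 5 endothelial markers (*Pecam1*) were called higher and no other marker was called. Without the RGLS4326 libraries of set 2, 927 of 15779 genes were called. Higher were then 5 of 10 proximal tubule, 3 of 5 endothelial, 1 of 5 thick ascending limb and 1 of 4 distal convoluted tubule markers. Lower were 1 of 5 intercalated cell and 1 of 5 macrophage markers. No podocyte, principal cell or T cell marker was called in that fit.

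**Figure D5:**
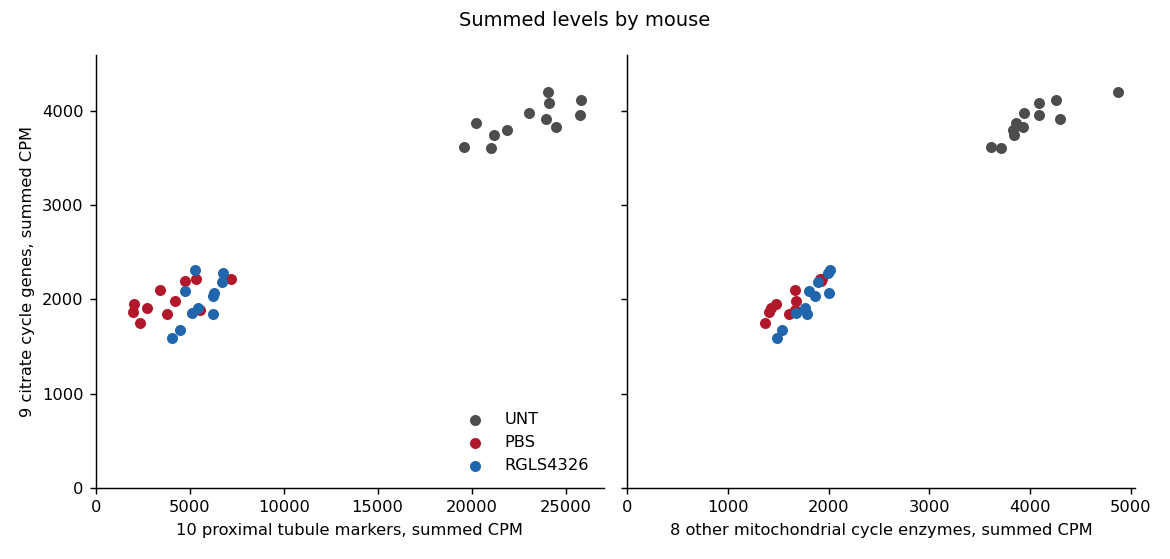
Summed CPM of the 9 citrate cycle genes in every kidney against the summed CPM of 10 proximal tubule markers (left) and of the 8 other mitochondrial enzymes of the cycle (right), all axes from 0. UNT kidneys stand apart at the upper right of both panels, and PBS kidneys (1754 to 2221 CPM) overlap RGLS4326 kidneys (1590 to 2311 CPM) in the citrate cycle sum.

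The 9 genes also varied together among mice of 1 group. With group means removed from log2 CPM, Pearson's r over the 34 mice was positive for all 36 pairs, from 0.22 (*Ogdh* and *Idh3b*) to 0.90 (*Suclg1* and *Idh3b*), with a median of 0.66. All values in a library share its depth and its scaling. Only group means were removed, not library set or the share of reads in no gene, so these are descriptions. *Idh2*, *Fh1* and *Idh3g* were closest to the mean of the other 8 (r = 0.89, 0.88 and 0.88), and *Ogdh* (0.55) and *Idh3a* (0.60) were the farthest. Spread within a group was small, with coefficients of variation from 3.58% (*Idh2*) to 12% (*Idh3a*) in UNT, 7.33% (*Cs*) to 17.9% (*Suclg1*) in PBS and 6.97% (*Idh3a*) to 15.9% (*Ogdh*) in RGLS4326 kidneys.

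Of 15635 other genes tested, the one most like the mean of the 9 within groups was *Atp5b*, the beta subunit of ATP synthase (r = 0.95, n = 34 mice). *Sdhc* (0.95), *Atp5a1* (0.92), *Vdac1* (0.92), *Uqcrc2* (0.91), *Uqcrfs1* (0.90), *Pmpcb* (0.89), *Sdhb* (0.89), *Ndufa9* (0.89) and *Sdhd* (0.89) followed. These encode ATP synthase, respiratory chain complexes, the outer membrane channel and the processing peptidase, and all 10 fell from UNT to PBS kidneys, from -1.38 for *Uqcrfs1* to -0.84 for *Vdac1* on the log2 scale. Between treatments their log2 differences ran from -0.06 for *Vdac1* to 0.13 for *Uqcrc2*, with edgeR adjusted p from 0.149 to 0.955. *Dld* (r = 0.49) and *Sucla2* (0.59), which rose with treatment, had lower values than *Dlst* (0.88). The least like were *Atg9b* (-0.77), *Zak* (-0.77), *Clcf1* (-0.76), *F420014N23Rik* (-0.75) and *Satb1* (-0.75).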

How the data were processed

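The authors prepared stranded polyadenylated RNA libraries, sequenced them as paired ends, trimmed the reads, mapped them with STAR to GRCm38 (mm10) and deposited counts of uniquely mapped reads per gene, made with HTSeq 0.6.1 per the labels. Gene annotation and strand setting are not given in the sources used here. Counts were tested with edgeR 4.0.16 (R 4.3.3): filterByExpr, TMM factors, 1 quasi-likelihood fit of the 3 groups without covariates, two-sided, Benjamini-Hochberg adjustment over the 15644 genes tested, called at an adjusted p under 0.05. CPM are TMM-scaled. Lengths, positions and 3′ untranslated regions come from the reference annotation of GRCm38. Ratios of counts per mouse were tested by two-sided permutation with 100000 resamples, whose smallest p is 2e-05. Intervals are at 95%.

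Libraries are separate mice per the labels, and no 2 libraries were identical. The 9 genes and all gene lists were chosen with earlier results of these data known. Named were the 9 genes, the listed enzymes of the cycle and their extramitochondrial counterparts, the called gene with the largest rise and fall of each other list, the first tested marker of each cell type, and the 10 most and 5 least like genes. Fits were checked on simulated data. Alternatives were other scalings, filters and covariates, DESeq2 1.42.0, each library set alone and each library left out. Some genes are not reported here.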

Additional observations from a re-analysis of the deposited data

How the results depend on the processing

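All 9 genes were called lower in PBS and in RGLS4326 than in UNT kidneys in each of the 49 alternatives run (scalings, filters, covariates, DESeq2, library sets alone, each library left out), with log2 fold changes for PBS against UNT from -1.65 to -0.15. Library totals alone raised the median of all genes to 0.33 in both comparisons with UNT. The members then ran from -1.11 to -0.15 and from -1.03 to -0.20, and *Acly* was at 0.0796 and 0.0361, reversed from its other values. Between RGLS4326 and PBS the count of called genes was 0 in all alternatives (0 to 0 with each library left out) but 1, library set 2 alone, with 2 (*Ogdh* -0.30, *Mdh2* -0.32). Set 2 alone called 4065 of 15944 genes, set 1 alone 54 of 15737 and set 3 alone 0 of 15676, so that the 0 in sets 1 and 3 says nothing about the 9 genes, of which 4 and 0 had an unadjusted p under 0.05 there in edgeR. For RGLS4326 against PBS, 22 of 135 values of the 9 genes had another sign than in the main fit, over all alternatives except those leaving out 1 library. With 1 library left out it was 17 of 306.

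Within library sets the ratios spread more, and with 3 against 4 mice the smallest exact permutation p is 0.0571. For PBS against UNT the log2 ratio to *Idh3a* was -0.24, -0.37 and -0.0682 in sets 1, 2 and 3 for *Idh2*. It was -0.44, -0.47 and -0.15 for *Idh3b*, and -0.32, -0.37 and 0.0098 for *Idh3g*, the last value reversed. For RGLS4326 against UNT it was -0.21, -0.52 and -0.31 in sets 1, 2 and 3 for *Idh2*, -0.54 in set 2 for *Idh3b*, and -0.22, -0.52 and -0.29 for *Idh3g*. For RGLS4326 against PBS *Idh3g* to *Idh3a* was 0.10 in set 1, -0.15 in set 2 and -0.30 in set 3 (exact permutation p = 0.343, 0.0571 and 0.0286), and *Idh3b* to *Idh3a* was 0.10, -0.07 and -0.21 and *Idh2* to *Idh3a* 0.03, -0.15 and -0.24, so that set 1 had the other sign for all 3. *Sucla2* to *Suclg1* was reversed in set 1, at 0.0345 for PBS against UNT and -0.0183 for RGLS4326 against PBS. *Suclg2* to *Suclg1* for PBS against UNT, not called, had the other sign in set 3 (-0.11). The causes were not tested.

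With the replicate number as a block, 9, 0 and 9 genes were called in PBS against UNT, RGLS4326 against PBS and RGLS4326 against UNT. The correlations gave no steady sign that the numbers pair the mice. Of 33 same-numbered pairs of libraries 9 had a correlation above 0.1 (range -0.29 to 0.40), and 3 of 34 libraries correlated best with their own number. The block ended the treatment call of *Idh1* (edgeR adjusted p = 0.0561). p-values measure the spread between these mice, and depth did not limit the 9 genes, with 2585 reads or more in every library.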
